A study of Mus musculus with 18 samples.

Results

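The synaptic vesicle machinery was followed in RPE/choroid through 8 genes, Snap25, Stx3, Vamp2, Syt1, Cplx3, Cplx4, Syp and Sv2b. Their probe sets were all those that the array annotation assigned to 1 of these symbols alone, which gave 18 of 45101 probe sets and 8 of the 18194 genes with a probe set of their own. RNA came from wild-type male C57BL6/J mice, 2 months old in the labels, that had received 1 μL into the vitreous. The 6 groups were dexamethasone (Dex, 10 μg), triamcinolone acetonide (TAA, 25 μg) and balanced salt solution (BSS, the control) at day 7, and the same 3 treatments at day 30. Each group had 3 Affymetrix arrays of separate animals, the 3 with the best RNA of 4 injected. The retina had been taken out of the opened eye before the RPE/choroid was collected, and nothing in the labels says how completely. The paper's authors held contamination with retinal cells to be very unlikely. They also state that most of the choroid likely stayed attached to the sclera, which was removed.

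A neuron releases transmitter when vesicles fuse with its surface membrane. Snap25 and a syntaxin on the surface membrane zip together with Vamp2 on the vesicle into the SNARE bundle that drives fusion, synaptotagmin senses calcium, and complexins hold and then help the bundle. Photoreceptors and bipolar cells of the retina release glutamate at ribbon synapses, which rely on Stx3 and on the complexins Cplx3 and Cplx4, where most brain synapses use other members of these families. The RPE is an epithelium with no such synapses, while the choroid holds vessels and autonomic nerve fibres.

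Every value below is a log2 value from which the median of the 18 arrays had been subtracted for that probe set. Such values hold the differences between arrays and no expression level, so the level of a gene, the order of the genes and the presence of the RPE markers in the tissue could not be given. Array medians ran from -0.044 to 0.02 and array SDs from 0.19 to 0.42. The steroids were each set against BSS of the same day with limma over all 18 arrays, with p-values adjusted over all probe sets, and the 2 steroids share these BSS arrays. For each gene the probe set with the largest SD over the arrays is given array by array, in the order of the replicates.

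Snap25 (1416828_at), a surface membrane partner in the SNARE bundle encoded on chromosome 2 (chr2:136713439-136782428, RefSeq, GRCm38.p6), had the widest spread of the 8 genes. At day 7 it stood at 2.59, 2.95 and -0.98 on the Dex arrays and at 0.00169, -2.17 and 3.02 on the TAA arrays, against -2.34, -2.35 and -1.76 on the BSS arrays. At day 30 it stood at -2.30, -0.00169 and 4.23 on the Dex arrays and at 3.43, 4.33 and -1.70 on the TAA arrays, against 4.82, -0.95 and 5.13 on the BSS arrays. The 3 BSS arrays of day 7 lay close together at the bottom, and every other group held both high and low arrays. Its lowest and highest array differed 178-fold. The SD over the 18 arrays was 2.84, where the median probe set had 0.159, and only 6 of 45101 probe sets varied more.

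Stx3 (1425530_a_at), the syntaxin of ribbon synapses, which also serves apical transport in epithelia, was at 0.93, 1.13 and -0.85 at day 7 after Dex and at 0.096, -0.75 and 1.35 after TAA, against -0.54, -0.62 and -0.27 after BSS. At day 30 the values were -0.28, -0.35 and 2.94 after Dex and 1.85, 2.70 and -0.29 after TAA, against 3.01, -0.096 and 3.005 after BSS. The same arrays as for Snap25 were high, and the groups overlapped at both days. Vamp2 (1420834_at), the vesicle partner in the bundle, ranged over less than 1 log2 unit. Its values were -0.048, 0.19 and 0.041 at day 7 after Dex and at -0.043, -0.050 and 0.42 after TAA, against -0.041, 0.24 and -0.23 after BSS. At day 30 they were -0.18, -0.11 and 0.58 after Dex and 0.35, 0.35 and -0.18 after TAA, against 0.64, -0.065 and 0.68 after BSS. At day 30 the order of its arrays was that of Snap25 in outline, and at day 7 it was not.

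Syt1 (1433884_at), the calcium sensor of fast release, was at 0.81, 1.13 and -0.51 at day 7 after Dex and at -0.017, -1.06 and 1.15 after TAA, against -0.69, -1.32 and -0.49 after BSS. The day 30 values were -0.47, -0.24 and 2.08 after Dex and 1.17, 1.91 and -0.038 after TAA, against 2.41, 0.017 and 2.22 after BSS. Again 1 or 2 arrays of each group, other than BSS at day 7, stood far above the rest. The complexin of ribbon synapses Cplx3 (1424606_at) was at 1.99, 1.82 and -0.54 at day 7 after Dex and at 0.067, -0.48 and 2.21 after TAA, against -0.79, -0.83 and -0.73 after BSS. For day 30 they were -0.83, -0.067 and 3.38 after Dex and 2.30, 3.60 and -0.70 after TAA, against 4.11, -0.27 and 4.08 after BSS. At day 7 all steroid arrays lay above all BSS arrays of Cplx3, and at day 30 the groups overlapped. Its relative Cplx4 (1451590_at), found in photoreceptor terminals, was at 2.08, 2.33 and -0.49 at day 7 after Dex and at 0.063, -0.75 and 2.52 after TAA, against -0.96, -0.66 and -0.38 after BSS. Its day 30 values were -0.44, -0.063 and 4.41 after Dex and 3.25, 4.04 and -1.05 after TAA, against 4.41, -0.38 and 4.48 after BSS. The groups of Cplx4 overlapped at both days, and its high arrays were those of Cplx3.

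Of the 2 proteins that sit in the vesicle membrane without taking part in the SNARE bundle, Syp (1448280_at), synaptophysin, was at 1.01, 1.91 and -0.16 at day 7 after Dex and at -0.20, -0.33 and 1.74 after TAA, against -0.60, -0.96 and -0.20 after BSS. On the day 30 arrays it was at -0.42, 0.16 and 2.98 after Dex and at 2.11, 2.42 and -0.54 after TAA, against 3.42, -0.16 and 3.26 after BSS. The Dex arrays of day 7 lay above the BSS arrays by a small gap, and the other groups overlapped. Sv2b (1434800_at), a vesicle glycoprotein, behaved unlike Syp. It was at -0.37, 0.029 and -0.19 at day 7 after Dex and at 0.18, -0.029 and 0.16 after TAA, against -0.51, 0.036 and -0.30 after BSS. At day 30 it was at -0.28, -0.23 and 0.26 after Dex and at 0.33, 0.16 and -0.51 after TAA, against 0.55, -0.11 and 0.077 after BSS. All groups of Sv2b overlapped and no array stood far apart.

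**Figure D1:**
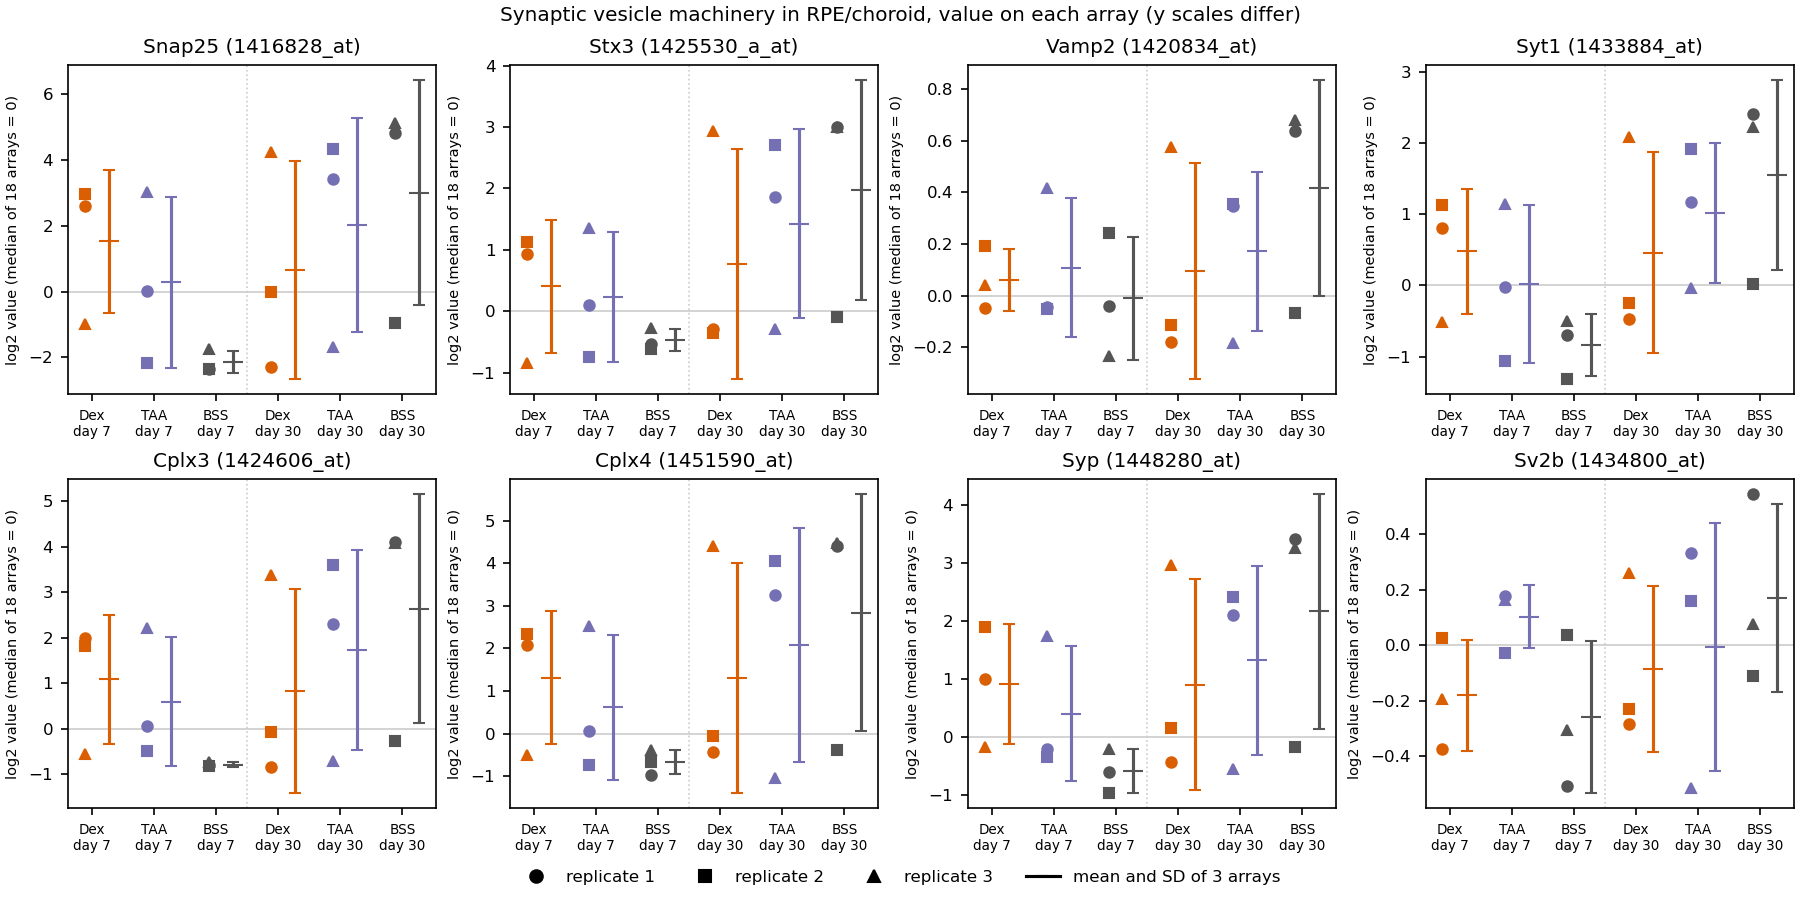
Log2 value of the 8 genes on each of the 18 arrays (vertical axis, median of the arrays set to 0, with scales that differ between panels) by treatment and day (horizontal axis), with the mean and SD of 3 arrays beside the points. Snap25 ranged from -2.35 to 5.13 and Sv2b from -0.51 to 0.55, and for Snap25 the high arrays fell in every group but BSS at day 7.

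Ordered by Snap25, the arrays had their widest gap, of 2.59 log2 units, between the eighth array (Dex day 7 replicate 1, at 2.59) and the next (TAA day 7 replicate 1, at 0.00169). The 8 arrays above it were Dex day 7 replicates 1 and 2, TAA day 7 replicate 3, Dex day 30 replicate 3, TAA day 30 replicates 1 and 2 and BSS day 30 replicates 1 and 3. These same 8 arrays were the highest 8 for both Snap25 probe sets, for all 4 of Syt1, for Cplx3, for Cplx4 and for the given probe sets of Stx3 and Syp. For Vamp2 (1420834_at) 7 of them, and for Sv2b (1434800_at) 6 of them, were among its highest 8. Arrays from above and from below the gap occurred within 5 of the 6 groups.

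Other probe sets of the same gene did not always follow. The second Snap25 probe set correlated with the first at r = 0.915 over the 18 arrays, and the 3 other Syt1 probe sets with the given one at r between 0.924 and 0.959. By contrast, the other Syp probe set had r = -0.321 and an SD of 0.144, and the other Vamp2 probe set had r = -0.634 and an SD of 0.230. The 3 other Stx3 probe sets had SDs between 0.163 and 0.195 and r between -0.0725 and 0.793, and the other Sv2b probe set had an SD of 0.192 and r = 0.583. The SD of 1456249_x_at (Syp) was below the median of all probe sets (0.159), and those of the other Stx3 probe sets were a little above it. The wide swings of Syp and Stx3 were thus seen in 1 probe set each. Of the other Stx3 probe sets, 1426151_a_at followed the given one at r = 0.793 over a small range (SD 0.184). Why the probe sets of a gene differed was not tested.

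Promoter windows, from 250 bases before to 50 bases after the annotated start (RefSeq, GRCm38.p6), were searched for 5 of the 8 genes. These 5 had 9 windows between them, and no window of Snap25, Vamp2 or Cplx4 was searched. Windows are shown for Stx3, Syp, Cplx3 and Syt1, whose arrays followed Snap25 closely, and for Sv2b, which followed it less closely. Capitals mark TAATCC or its reverse complement GGATTA, the core bound by photoreceptor homeobox proteins such as Crx, and ACANNNTGT, the palindromic core of a glucocorticoid receptor element, on both strands.
Stx3 (chr19:11819354-11819653, minus strand): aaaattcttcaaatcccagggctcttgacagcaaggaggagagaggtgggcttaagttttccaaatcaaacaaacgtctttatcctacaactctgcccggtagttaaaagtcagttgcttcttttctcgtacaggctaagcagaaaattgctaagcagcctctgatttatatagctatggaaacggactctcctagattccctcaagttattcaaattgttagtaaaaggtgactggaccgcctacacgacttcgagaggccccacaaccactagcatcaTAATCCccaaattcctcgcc
Syp (chrX:7638330-7638629, plus strand): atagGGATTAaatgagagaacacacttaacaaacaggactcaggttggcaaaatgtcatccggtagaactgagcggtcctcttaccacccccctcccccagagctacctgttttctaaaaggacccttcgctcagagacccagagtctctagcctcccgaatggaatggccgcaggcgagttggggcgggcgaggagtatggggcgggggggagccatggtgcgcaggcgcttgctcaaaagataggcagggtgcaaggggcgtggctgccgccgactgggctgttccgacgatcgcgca
Cplx3 (chr9:57606232-57606531, minus strand): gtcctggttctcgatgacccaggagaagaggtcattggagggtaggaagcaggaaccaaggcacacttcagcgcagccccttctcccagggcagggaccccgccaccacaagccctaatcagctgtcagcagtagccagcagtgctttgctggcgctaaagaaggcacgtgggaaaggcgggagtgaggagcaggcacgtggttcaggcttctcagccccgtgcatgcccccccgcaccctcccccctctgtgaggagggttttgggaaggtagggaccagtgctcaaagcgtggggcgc
Syt1 (chr10:109009062-109009361, minus strand): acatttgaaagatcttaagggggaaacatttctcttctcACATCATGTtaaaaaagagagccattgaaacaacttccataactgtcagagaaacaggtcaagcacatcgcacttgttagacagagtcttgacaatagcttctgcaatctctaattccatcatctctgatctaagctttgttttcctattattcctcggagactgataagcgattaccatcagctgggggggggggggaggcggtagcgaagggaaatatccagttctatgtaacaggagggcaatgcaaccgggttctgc
Sv2b (chr7:75309213-75309512, minus strand): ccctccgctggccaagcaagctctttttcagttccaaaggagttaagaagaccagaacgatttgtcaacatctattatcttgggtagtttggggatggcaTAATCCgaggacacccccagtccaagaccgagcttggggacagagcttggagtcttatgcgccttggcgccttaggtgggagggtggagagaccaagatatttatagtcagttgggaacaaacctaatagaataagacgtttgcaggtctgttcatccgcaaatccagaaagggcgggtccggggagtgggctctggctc
The homeobox core was present in 4 of the 9 windows, those of Stx3 (30 bases after the start), Syp (246 bases before it) and 2 of the 4 Sv2b windows, against 7.06% of all 32851 windows searched. The glucocorticoid receptor core was present in 2 of the 9, 1 of 2 Syt1 windows (211 bases before the start) and 1 Sv2b window, against 6.85% of all windows. Windows of 1 gene, such as the 4 of Sv2b, are not independent. With 9 windows of 5 genes no excess over these shares can be read. Neither core was found in the Cplx3 window, and the Sv2b window shown held the homeobox core. Over the 18 arrays Sv2b followed Snap25 less closely (r = 0.688) than Cplx3 did (r = 0.983). The 2 cores do not overlap each other in these windows. Letters in a window are no evidence that a protein binds there.

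After Dex at day 7 the synaptic vesicle genes averaged higher than after BSS, with 95% intervals that all included 0. Snap25 averaged 1.52 ± 2.17 after Dex and -2.15 ± 0.34 after BSS (SD, n = 3 each), a log2 difference of 3.67 (SE 1.98, 95% interval -0.54 to 7.88). The SEs and intervals take 1 spread for all 6 groups. The SD of Snap25 ran from 0.34 after BSS at day 7 to 3.42 after BSS at day 30. Cplx4 differed by 1.98 (SE 1.56), Cplx3 by 1.87 (SE 1.33), Syp by 1.501 (SE 1.05), Syt1 by 1.31 (SE 0.778) and Stx3 by 0.88 (SE 1.001). Vamp2 differed by 0.0715 (SE 0.234) and Sv2b by 0.0787 (SE 0.223). None of the 18 probe sets passed limma's test, all with an adjusted p of 1, and 0% of all probe sets did. The study's own thresholds, a 1.5-fold difference together with p up to 0.05 before any adjustment, were passed by none of the 18 and by 0.104% of all probe sets with limma's p. With the p of the methods' t-test 1 of the 18, Snap25 (1416828_at), passed them and 0.195% of all probe sets did, with 0 of the 18 left after Benjamini-Hochberg adjustment. In 4 of the 18, Snap25 (1416828_at), Syt1 (1421990_at), Syp (1448280_at) and Cplx3 (1424606_at), the 3 Dex arrays lay above the 3 BSS arrays, as in 4.18% of all probe sets. These 4 share their high arrays and are not independent counts. The estimate was above 0 in 15 of the 18, with a median of 0.39, beside -0.000608 over all probe sets, and in 8 of the 8 probe sets given array by array, with a median of 1.41. With 1 array of the comparison left out, Snap25 differed by 2.96 (without Dex replicate 2) to 4.92 (without Dex replicate 3, the low array). In the last case 1 of the 18 passed the thresholds of the study, beside 0.126% of all probe sets.

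After TAA at day 7 these genes also averaged higher than after BSS, with intervals that again included 0. Snap25 averaged 0.28 ± 2.60 after TAA and -2.15 ± 0.34 after BSS (SD, n = 3 each), a log2 difference of 2.43 (SE 1.98, 95% interval -1.78 to 6.64). Cplx3 differed by 1.38 (SE 1.33), Cplx4 by 1.28 (SE 1.56), Syp by 0.989 (SE 1.05), Syt1 by 0.857 (SE 0.778) and Stx3 by 0.71 (SE 1.001). Sv2b differed by 0.362 (SE 0.223) and Vamp2 by 0.119 (SE 0.234). None of the 18 probe sets passed limma's test (smallest adjusted p = 0.996), which called 0.00222% of all probe sets, and none passed the thresholds of the study, which 0.452% did. The TAA arrays lay above the BSS arrays in 4 of the 18, Syt1 (1421990_at), Cplx3 (1424606_at), Stx3 (1434559_at) and Sv2b (1435687_at), against 4.55% of all. Of these, Stx3 (1434559_at) and Sv2b (1435687_at) are probe sets of small spread whose arrays did not follow Snap25. The estimate was above 0 in 17 of the 18, with a median of 0.367, beside -0.00783 over all probe sets. The high TAA mean of Snap25 rested on replicate 3, and without it the difference was 1.07. Without TAA replicate 2, the low array, it was 3.66.

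At day 30 the same genes averaged lower after Dex than after BSS. Snap25 averaged 0.64 ± 3.31 after Dex and 2.999 ± 3.42 after BSS (SD, n = 3 each), a log2 difference of -2.36 (SE 1.98, 95% interval -6.57 to 1.85). Cplx3 differed by -1.81 (SE 1.33), Cplx4 by -1.54 (SE 1.56), Syp by -1.27 (SE 1.05), Stx3 by -1.20 (SE 1.001) and Syt1 by -1.09 (SE 0.778), while Vamp2 differed by -0.322 (SE 0.234) and Sv2b by -0.255 (SE 0.223). None of the 18 passed limma's test, at 0% of all probe sets, with an adjusted p of 0.999 for each, and none passed the thresholds of the study, which 0.477% of all did. The groups overlapped in all 18, whereas 4.84% of all probe sets had the groups apart in either direction. The estimate was below 0 in 18 of the 18, with a median of -0.495, beside 0.00502 over all probe sets. Single arrays moved these values. Without BSS day 30 replicate 2, the low control, Snap25 differed by -4.33 and 9 of the 18 passed the thresholds of the study, beside 3.91% of all probe sets, while the smallest adjusted p of the 18 in limma was 0.203, for Snap25 (1447763_at). Without Dex day 30 replicate 3, the high Dex array, Snap25 differed by -4.15 and 7 of the 18 passed them, beside 2.16% of all. The difference shrank to -0.888 without Dex replicate 1, to -1.29 without BSS replicate 3 and to -1.45 without BSS replicate 1.

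After TAA at day 30 the genes averaged lower than after BSS by amounts near or below the error. Snap25 averaged 2.02 ± 3.25 after TAA and 2.999 ± 3.42 after BSS (SD, n = 3 each), a log2 difference of -0.98 (SE 1.98, 95% interval -5.19 to 3.23). The others ran between -0.907 for Cplx3 and -0.177 for Sv2b among the probe sets given array by array, each smaller than its SE except Vamp2 (-0.245, SE 0.234). None of the 18 passed limma's test, with an adjusted p of 1 for each and 0% of all probe sets called, and none passed the thresholds of the study, which 0.175% of all did. The groups overlapped in all 18, where 5.97% of all probe sets had them apart in either direction. The estimate was below 0 in 17 of the 18, with a median of -0.311, beside 0.0026 over all probe sets. The direction depended on single arrays, since Snap25 differed by 0.879 without TAA day 30 replicate 3 and by 0.0846 without BSS day 30 replicate 3. It differed by -1.69 and -2.13 without TAA replicates 1 and 2 and by -0.0728 without BSS replicate 1. Without BSS day 30 replicate 2 it differed by -2.95, and 3 of the 18 passed the thresholds of the study, beside 2.47% of all probe sets. With p up to 0.05 before adjustment limma had 0 of the 18 in each of the 4 comparisons, where over all probe sets it had 2.23% after Dex and 3.93% after TAA at day 7, and 4.23% after Dex and 2.63% after TAA at day 30. The methods' t-test had 1 after Dex (Snap25, 1416828_at) and 1 after TAA (Stx3, 1434559_at) at day 7, beside 3.83% and 5.01% of all probe sets, and 0 at day 30.

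**Figure D2:**
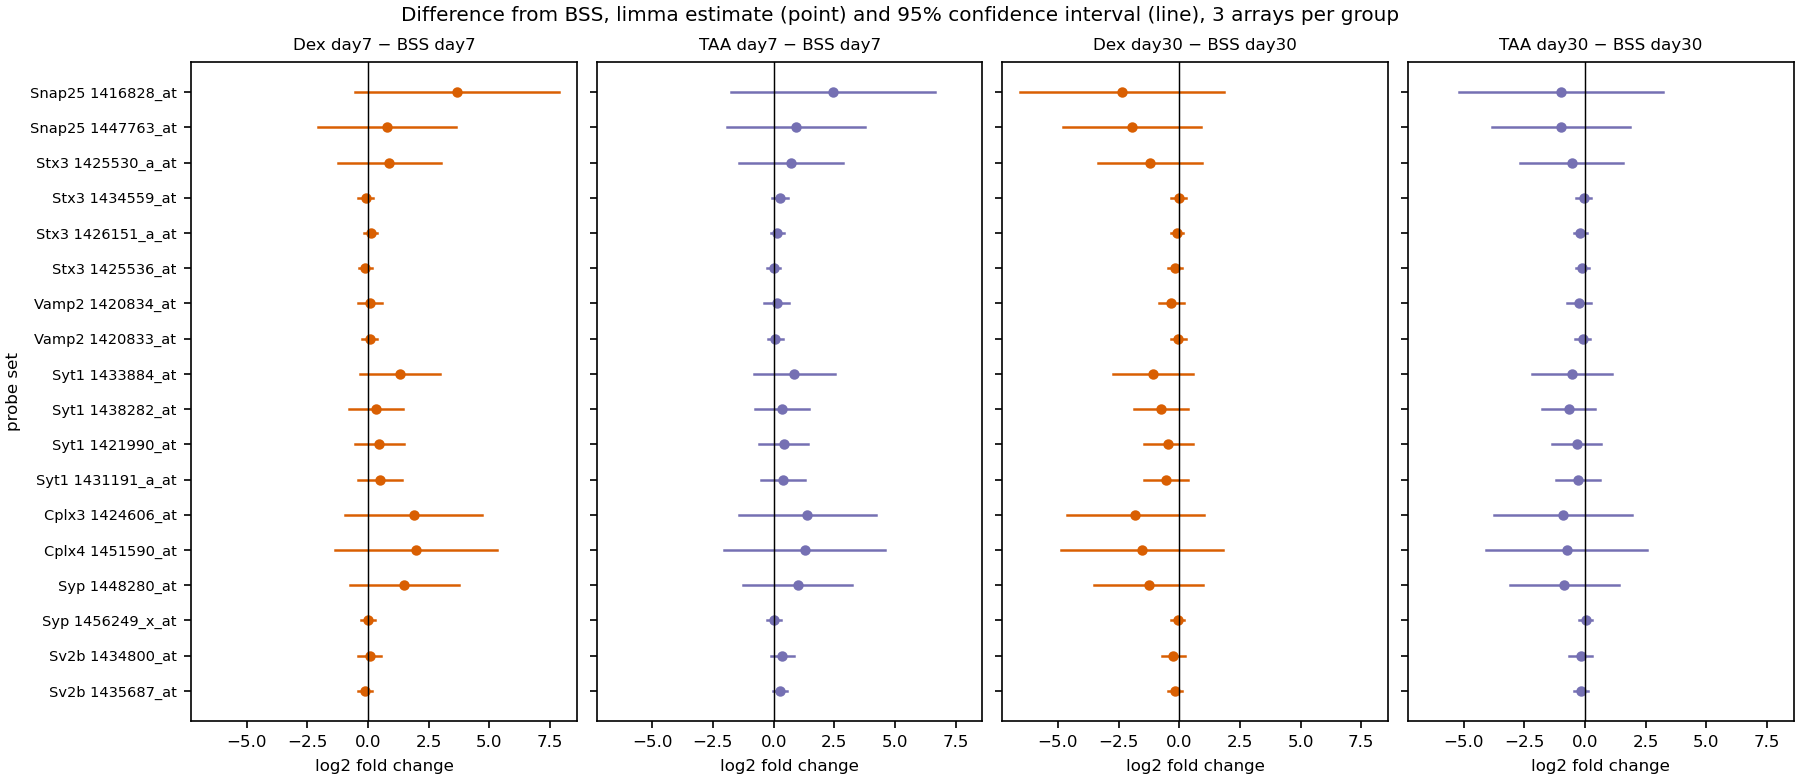
Log2 difference from BSS of the same day (horizontal axis, point) with its 95% confidence interval from limma (line) for the 18 probe sets (vertical axis) in the 4 comparisons, 3 arrays per group. Every interval crosses 0, and those of Snap25 (1416828_at) are the widest, from -0.54 to 7.88 after Dex at day 7.

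Whether the effect of a steroid differed between the days was tested as the effect at day 30 minus that at day 7. For Dex it was -6.03 (SE 2.80) for Snap25, with an unadjusted p of 0.0475 and an adjusted p of 1 in limma, and for TAA it was -3.41 (SE 2.80, adjusted p = 0.994). Neither test called any of the 18, nor any other probe set (0% each), and with p up to 0.05 before adjustment they had 2 (Snap25 1416828_at and Syt1 1433884_at) and 0 of the 18, beside 2.97% and 3.03% of all probe sets. With the 3 treatments averaged, the day 30 value of Snap25 minus its day 7 value was 2.001 (SE 1.14, adjusted p = 0.465), and none of the 18 was called, where 0.399% of all probe sets were. Of the 18, 5 had p up to 0.05 before adjustment, beside 13.8% of all probe sets. At the thresholds of the study 3 of the 18 were higher at day 30, Snap25 (1447763_at, 1.66), Stx3 (1425530_a_at, 1.34) and Syt1 (1433884_at, 1.12), against 0.661% of all probe sets. The smallest p of the 18 for the day belonged to a probe set that went the other way, Vamp2 (1420833_at), at -0.323 (SE 0.0841, adjusted p = 0.111). The F-test over the 6 groups called 0.0155% of all probe sets and none of the 18 (smallest adjusted p = 0.975).

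The rest of the presynaptic apparatus was examined as 5 lists at the level of genes, each gene the mean of its probe sets. After Dex at day 7, 7 of 8 measured SNARE and priming genes, 12 of 15 vesicle proteins, 9 of 11 genes of the active zone and the ribbon, 3 of 5 transporters that fill vesicles and 7 of 7 genes of vesicle recovery were above BSS, with medians of 0.199, 0.146, 0.335, 0.0753 and 0.332, beside 0.00223 over all genes. None passed limma's test, nor did any gene on the arrays (0%). Within their lists the largest differences were those of Cabp4 (1.18, SE 0.885) and Cacna2d4 (1.125, SE 0.988), which act with the calcium channel of photoreceptor terminals, Amph (1.15, SE 1.12), a protein of vesicle recovery, Synpr (1.095, SE 1.05), a relative of synaptophysin, Slc17a6 (0.834, SE 0.71), a glutamate transporter of vesicles, and Napb (0.534, SE 0.478), which helps to take used SNARE bundles apart. After TAA at day 7 the counts above BSS were 7 of 8, 10 of 15, 9 of 11, 3 of 5 and 6 of 7 in the same order, with medians of 0.161, 0.0765, 0.25, 0.0284 and 0.189, and the largest were Cabp4 (0.796, SE 0.885), Snap91 (0.654, SE 0.642), an adaptor of vesicle recovery, and Cacna2d4 (0.617, SE 0.988). No listed gene passed, where 0.0055% of all genes did, and 0 of the 46 measured had p up to 0.05 before adjustment after either steroid, beside 1.83% of all genes after Dex and 4.23% after TAA.

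At day 30 most of these genes lay below BSS. After Dex 8 of 8, 11 of 15, 11 of 11, 4 of 5 and 6 of 7 did so, with medians of -0.296, -0.215, -0.571, -0.278 and -0.442, beside 0.0113 over all genes. Slc17a6 had the largest difference (-1.84, SE 0.71), followed by Cplx1 (-1.15, SE 0.427), the complexin of conventional synapses, and Cabp4 (-1.12, SE 0.885), while Slc18a2 (0.775, SE 0.254), which loads monoamines into vesicles, was above BSS. After TAA 8 of 8, 13 of 15, 10 of 11, 4 of 5 and 6 of 7 were below BSS, with medians of -0.193, -0.181, -0.275, -0.147 and -0.356, and the largest were Slc17a6 (-1.07, SE 0.71), Cabp4 (-0.727, SE 0.885) and Cacna2d4 (-0.705, SE 0.988). No listed gene passed limma's test in either comparison, at 0% of all genes in both, with smallest adjusted p of 0.934 after Dex and 1 after TAA. With p up to 0.05 before adjustment there were 8 of the 46 after Dex, 4 of them SNARE and priming genes, and 0 after TAA, beside 4.7% and 2.57% of all genes. For the day, all 8, 13 of 15, 11 of 11, 4 of 5 and 7 of 7 were above 0, none passed limma's test (smallest adjusted p = 0.166), and 0.429% of all genes did. Before adjustment 11 of the 46 had p up to 0.05, beside 15.3% of all genes.

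The 8 genes themselves had gene medians of 0.7 after Dex and 0.499 after TAA at day 7, and -0.687 after Dex and -0.43 after TAA at day 30. Their broadly expressed relatives had medians near 0 against BSS. These are 18 genes such as Snap23, Vamp3 and Stx4a that carry out membrane fusion in most cells. Their medians were -0.00558 after Dex and 0.0384 after TAA at day 7, and 0.0125 after Dex and 0.0335 after TAA at day 30. None passed limma's test, and 1 had p up to 0.05 before adjustment, after TAA at day 7, beside 4.23% of all genes. For the day they ran the other way from the synaptic genes, with 12 of 18 below 0 and a median of -0.0786. Before adjustment 6 of 18 had p up to 0.05 in limma, beside 15.3% of all genes (smallest adjusted p in limma 0.0769). The largest of them were Stxbp3 after Dex at day 7 (-0.384, SE 0.203) and Stxbp2 after TAA at day 7 (0.296, SE 0.165), both partners of syntaxins outside the nervous system. Their score on an array, the mean of the list's values, ranged only from -0.112 to 0.100, and 1 of the 8 arrays with high Snap25 was among its highest 8. Its correlation with Snap25 was r = -0.745 over the 18 arrays, -0.888 within those 8 and 0.114 within the other 10.

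**Figure D3:**
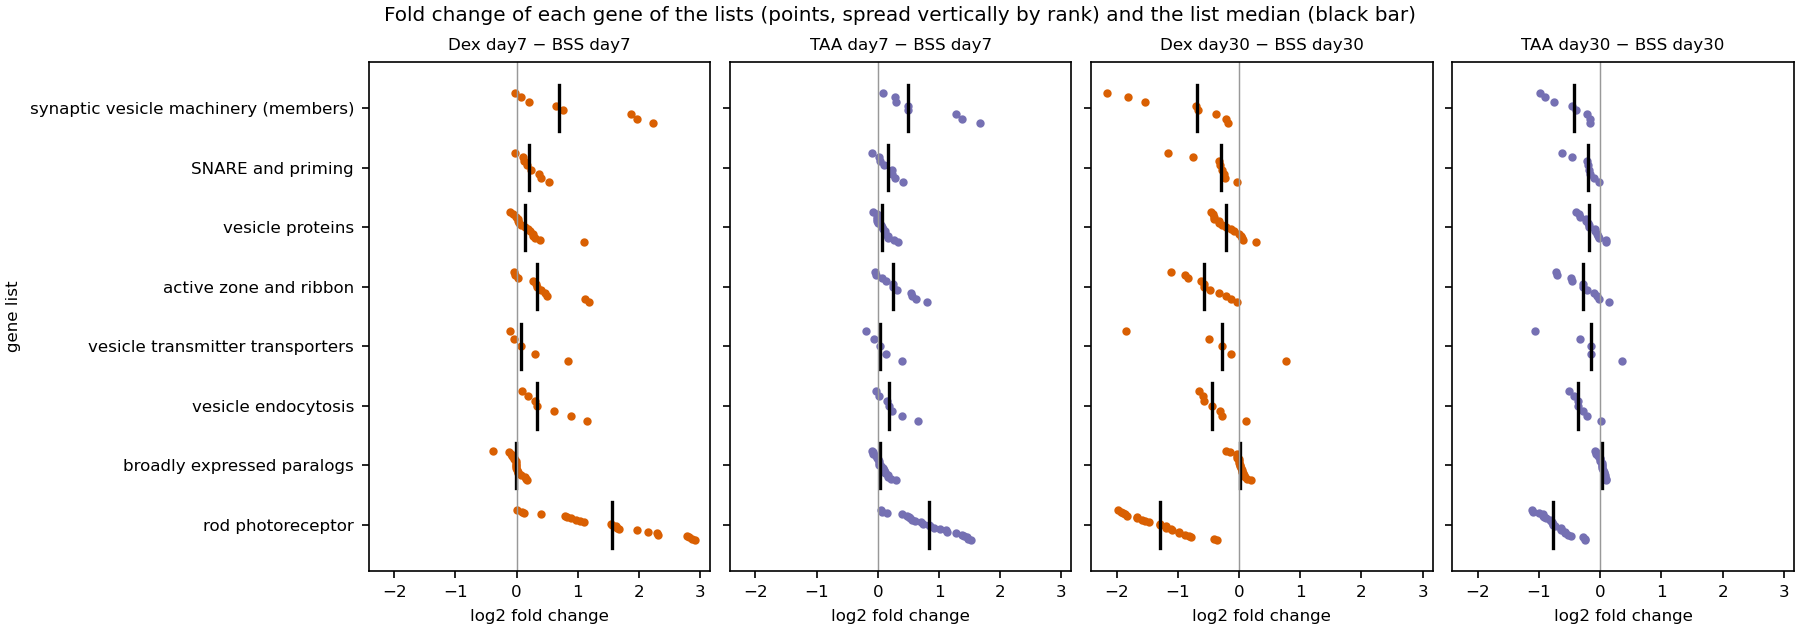
Log2 difference from BSS of the same day (horizontal axis) for each gene (points, spread vertically by rank) and the median (black bar) of the gene lists (vertical axis) in the 4 comparisons. The medians of the synaptic lists lie above 0 at day 7 and below 0 at day 30, like the rod photoreceptor list, and the median of the 18 broadly expressed relatives stays between -0.00558 and 0.0384.

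Markers of retinal cells were high on the same arrays as the synaptic genes. Of 23 measured rod photoreceptor genes, 23 were above BSS after Dex and 23 after TAA at day 7, and 23 were below BSS after Dex and 23 after TAA at day 30. These genes share their high arrays and are not independent counts, and none passed limma's test. With p up to 0.05 in limma before adjustment there were 0 after either steroid at day 7, beside 1.83% of all genes after Dex and 4.23% after TAA. At day 30 there were 2 after Dex and 1 after TAA, beside 4.7% and 2.57%. The rod score lay between -0.286 and 1.40 on the Dex arrays and between -1.20 and 1.72 on the TAA arrays at day 7, against -1.03 to -0.484 on the BSS arrays. At day 30 it lay between -1.09 and 2.94 on the Dex arrays and between -1.18 and 2.72 on the TAA arrays, against -0.434 to 3.18 on the BSS arrays. The 8 arrays with high Snap25 were also the 8 with the highest rod score. They were the highest 8 for the scores of cone (9 genes), bipolar (10), amacrine and horizontal (10), ganglion (7) and Müller glia (8) markers too. Against BSS the single genes of these lists were less uniform than the rod genes. After TAA at day 7, 6 of 9 cone, 8 of 10 bipolar, 5 of 10 amacrine and horizontal, 4 of 7 ganglion and 6 of 8 Müller glia genes were above BSS. The arrays with high Snap25 were not the highest 8 for RPE markers (3 of its highest 8, score from -0.270 to 0.209), endothelium (2 of 8), Schwann cell and sympathetic nerve (2 of 8), muscle (3 of 8) or lens (4 of 8). The lens genes were below BSS in 8 of 8 after TAA at day 7 (median -1.20), after Dex at day 30 (-1.27) and after TAA at day 30 (-1.33). At day 30 this rested in large part on 1 BSS array, replicate 3, with a lens score of 3.19 beside 0.931 and -0.00217 on the other BSS arrays, and without it the medians were -0.258 after Dex and -0.366 after TAA. Skeletal muscle genes were below BSS in 8 of 8 after TAA at day 7 (median -0.619) and at day 30 (-0.286). After TAA at day 7, 4 of 8 muscle and 3 of 8 lens genes had p up to 0.05 in limma before adjustment, beside 4.23% of all genes. RPE markers were above BSS in 14 of 14 after TAA at day 7 (median 0.12). Their score overlapped between the groups, from 0.0668 to 0.177 on the TAA arrays and from -0.185 to 0.209 on the BSS arrays. With p up to 0.05 in limma before adjustment there were 0 of these 14, beside 4.23% of all genes. Endothelial genes were above BSS in 9 of 9 after Dex at both days (0.286 and 0.332) and after TAA at day 30 (0.171). At day 30 the endothelial score of BSS replicate 2 (0.185) was above those of all 3 Dex arrays (0.0455, 0.0804 and 0.172). BSS replicates 1 and 3, which are among the arrays with high Snap25, were at -0.615 and -0.379. Genes of a list share their arrays and are not independent counts. None of the RPE or endothelial genes passed limma's test. Before adjustment 5 of the 9 endothelial genes had p up to 0.05 in limma after Dex at day 30, beside 4.7% of all genes. After Dex at day 7 and after TAA at day 30 there were 0. In bulk tissue, fewer cells of a type and less RNA per cell cannot be told apart. The part of retinal cells in the synaptic values of each array was not tested.

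Within the 8 arrays with high Snap25 the correlation of Snap25 with the rod score was r = 0.967, and within the other 10 it was r = 0.844. For the active zone and ribbon score the values were r = 0.985 in the 8 and r = 0.708 in the 10. These are descriptions, since Snap25 and the score of an array come from the same RNA and scaling. Setting the rod score aside by subtraction took the SD of Cplx3 over the arrays to 0.403, beside 1.89 without it, that of Syp to 0.317, beside 1.49, and that of Snap25 to 1.27, beside 2.84. After it the means of Snap25 were 0.774 ± 1.27 after Dex and 0.197 ± 1.13 after TAA at day 7, against -1.40 ± 0.190 after BSS, and 0.00712 ± 1.25 after Dex and 0.801 ± 1.15 after TAA at day 30, against 1.07 ± 1.39 after BSS (SD, n = 3 each). The means of Cplx3 were 0.342 ± 0.561 after Dex and 0.513 ± 0.201 after TAA at day 7, against -0.0386 ± 0.249 after BSS, and 0.194 ± 0.290 after Dex and 0.516 ± 0.350 after TAA at day 30, against 0.710 ± 0.474 after BSS (SD, n = 3 each). For Vamp2 and Sv2b the subtraction widened the SD, to 1.37 and 1.42. The scales of a probe set and of a score differ, so that these differences are no measure of expression apart from rods.

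**Figure D4:**
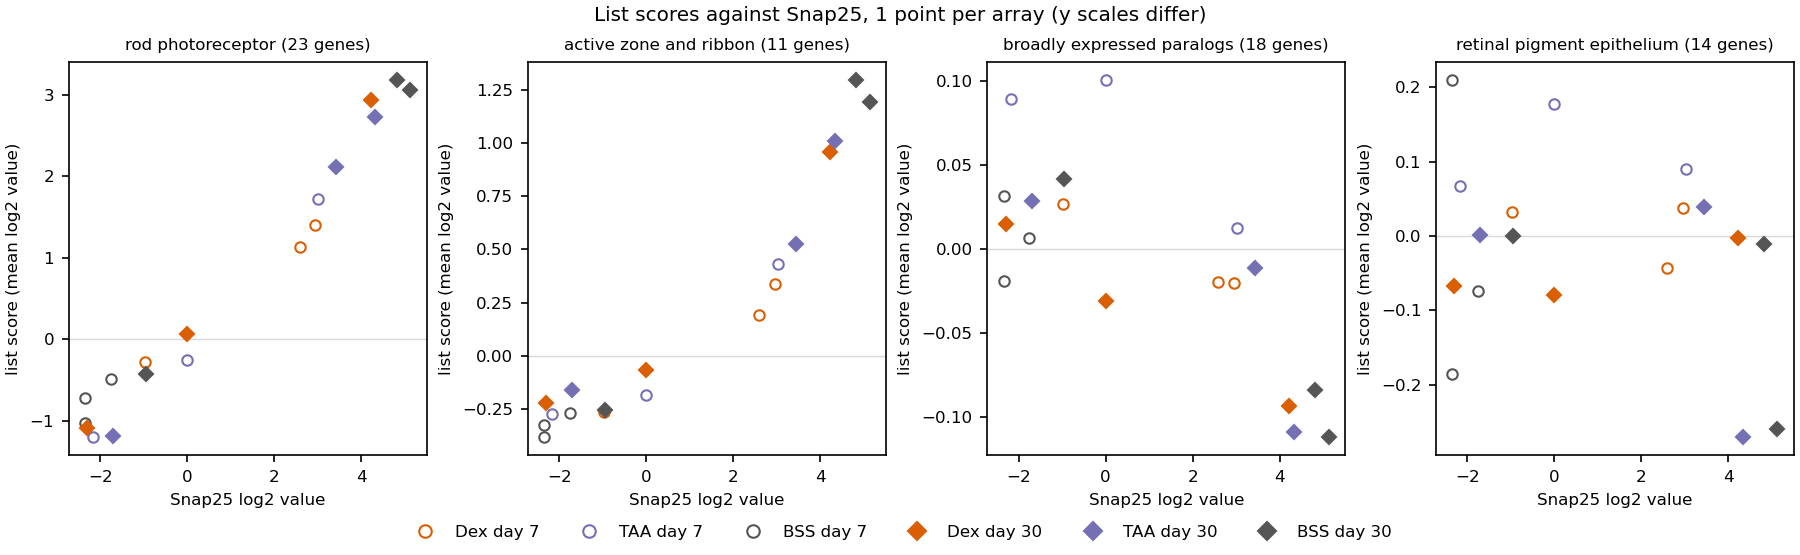
Scores of 4 gene lists (vertical axes, mean log2 value of the genes, scales differ) against the log2 value of Snap25 (horizontal axis), 1 point per array, 18 arrays, coloured by treatment, open circles for day 7 and filled diamonds for day 30. The rod and the active zone scores climb with Snap25, the paralog score covers only -0.112 to 0.100 and the RPE score -0.270 to 0.209.

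Over the 18 arrays the genes outside the 8 whose values were most like Snap25 were Aipl1 (r = 0.992), a chaperone of photoreceptor phosphodiesterase, Wdr17 (r = 0.992), Neurod1 (r = 0.992), a transcription factor of neurons, Gad1 (r = 0.991), which makes GABA, Slc12a5 (r = 0.990), a neuronal chloride exporter, Mir124-2hg (r = 0.990), a host transcript of miR-124, Isl1 (r = 0.990), a homeobox transcription factor, and Chgb (r = 0.989), a granin of secretory granules. Within the 8 arrays above the gap their r was between 0.937 and 0.997, and within the 10 below it between 0.838 and 0.973. In all, 334 of the 34957 other probe sets with 1 gene had r above 0.9 with Snap25, 969 had r above 0.8 and 92 had r below -0.8. Of the genes described here, Cplx3 was at rank 18 (r = 0.983), Cplx4 at 24 (r = 0.980), Syp at 46 (r = 0.973), Syt1 at 63 (r = 0.968), Stx3 at 90 (r = 0.955), Vamp2 at 748 (r = 0.832) and Sv2b at 1881 (r = 0.688). Within the 9 arrays of day 7 and of day 30 Snap25 and Cplx3 had r = 0.982 and r = 0.990, and Vamp2 had r = 0.477 at day 7 and r = 0.968 at day 30. The shared swing was thus present within each day and within each side of the gap for Cplx3, and mostly at day 30 for Vamp2.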

How the data were processed

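The 18 Affymetrix arrays held RPE/choroid RNA, with 3 animals in each of the 6 groups that the sample titles name. The authors normalized the scans with RMA (named in the submitters' processing notes) in GeneSpring and took the median of all samples as baseline, so that the deposited log2 values are centred. In every probe set the median was 0 to within 5e-07, and no filter on weak signals could be made. A different labelling kit is named in the labels than in the methods. Probe sets were named from the platform annotation, in which 34958 have 1 gene symbol, 932 several and 9211 none.

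The fit used R 4.3.3 and the package limma 3.58.1, with 1 mean per group over all 18 arrays and moderated variances (12 residual and 3.29 prior degrees of freedom). All tests were two-sided, with Benjamini-Hochberg adjustment over 45101 probe sets, or 18194 genes, and a call at an adjusted p under 0.05. With 3 arrays against 3 an exact permutation test cannot go below p = 0.1. All probe sets of the 8 genes are described, the 1 with the largest SD by array. Of each further list the members with the largest difference are named, and of all other genes the 8 with the highest r to Snap25. The 8 genes, the lists and the motifs were chosen with earlier results of these data known. Doses of Dex and TAA differ, and the 2 were not compared. Python 3.11.15 with pandas 2.3.3 and matplotlib 3.10.9 was used for counts and plots, and the fit was tested on simulated data.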

Additional observations from a re-analysis of the deposited data

How the results depend on the processing

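None of the 18 probe sets of the 8 genes passed the adjusted threshold against BSS under any alternative run (another array scaling, array weights, a robust prior, only the arrays compared, the methods' t-test, a replicate block, or 1 array left out). The smallest adjusted p was 0.203, for Snap25 (1447763_at) after Dex at day 30 without BSS replicate 2. Among the estimates of the probe sets given array by array, alternatives changed 288 values, and 15 of these had the other sign. After quantile normalization Stx3 differed by 0.00547 after TAA at day 30. With 1 array left out, the ranges that crossed 0 were -2.95 to 0.879 (Snap25), -2.01 to 0.0915 (Syp), -2.36 to 0.31 (Cplx3), -2.36 to 0.809 (Cplx4), -1.58 to 0.305 (Stx3) and -0.346 to 0.0762 (Sv2b) after TAA at day 30, -0.0398 to 0.198 (Vamp2) and -0.0453 to 0.226 (Sv2b) after Dex at day 7, and -0.0363 to 0.245 (Vamp2) after TAA at day 7. The cause was not tested. Of the 18 probe sets, those past the thresholds of the study after Dex at day 7 numbered 0 in the main fit. They numbered 2 with quantile normalization, 1 with array weights and 5 with only the arrays compared. With the methods' t-test they numbered 1 (Snap25, 0 after Benjamini-Hochberg adjustment), beside 0.195% of all probe sets. With 1 array left out they numbered 0 to 1 (1 beside 0.126% of all). After Dex at day 30 they numbered 0 to 9 with 1 array left out (9 beside 3.91% of all). After TAA at day 30 they numbered 1 with array weights and 0 to 3 with 1 array left out (3 beside 2.47% of all). For quantile normalization, array weights and only the arrays compared, the share over all probe sets was not counted. Those counts therefore have no background to be read against. Over all probe sets, calls for the day numbered 180, but 107 with quantile normalization, 2409 with array weights, 98 with the replicate block and 63 to 1255 with 1 array left out (1255 without BSS day 30 replicate 2, 63 without TAA day 7 replicate 2). Those of the F-test numbered 7, but 27 with array weights and 6 to 27 with 1 array left out (27 without BSS day 30 replicate 2). Left-out arrays gave 0 to 1 calls after TAA at day 7 (0 without BSS replicate 2 or 3 or TAA replicate 1 or 3, and 0 with the methods' t-test), 0 to 41 after Dex at day 30 and 0 to 3 after TAA at day 30 (41 and 3 without BSS replicate 2) and 0 to 1 for the difference between days in the effect of Dex and of TAA (1 for TAA with quantile normalization). Same-numbered arrays correlated between -0.694 and 0.246 in their deviations from the group means. The main fit took no pairing by number, which 3 arrays per group cannot exclude. With the replicate block Snap25 differed by 3.67 after Dex at day 7 (adjusted p = 1). The number of arrays, 3 per group, limits the precision.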
